A study of Mus musculus with 32 samples.

Results

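The genes described here are 4 members of TGF-beta signalling and matrix adhesion in mouse prefrontal cortex: the signal transducer Smad3, the TGF-beta-induced genes Klf10 and Tgfbi, and the matrix receptor subunit Itgb1. They are 4 of 4696 clone spots on the array, and 4 of the 1115 clones whose title names a gene. They were found by their clone titles, and they had been chosen by their EtOH minus air differences on these same arrays. Those differences, and their interactions with line and sex, are therefore given as a description with no test, and tests are kept to comparisons of line, sex and population that did not choose them. The label TGF-beta and matrix adhesion rests on the clone titles alone, since each gene has 1 spot.

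TGF-beta ligands bind serine and threonine kinase receptors, which phosphorylate Smad2 and Smad3, and these enter the nucleus with Smad4 and switch target genes. Klf10 is a zinc finger repressor that TGF-beta induces early, and Tgfbi encodes a secreted matrix protein that binds collagens and integrins. Itgb1 encodes the beta 1 chain shared by many receptors for fibronectin, laminin and collagen, which in brain act at synapses, on glia and in vessel walls.

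The study compared ethanol withdrawal with air in mice of a line prone to withdrawal seizures (WSP, Withdrawal-Seizure Prone) and a line resistant to them (WSR, Withdrawal-Seizure Resistant), bred from HS/Ibg stock for high or low severity of withdrawal, each kept as 2 independently selected populations (WSP-1, WSP-2, WSR-1 and WSR-2). Each of 32 one-colour spotted cDNA arrays held 33P-labelled cDNA from a pool of 2 mice. The 8 groups of 4 arrays were EtOH and air in female WSP, female WSR, male WSP and male WSR mice, with 2 arrays from each population in a group. All mice were drug-naive adults of selected generation 26, and no age in days is stated for them. EtOH mice received 1.5 g/kg ethanol by injection (a higher dose in WSP-2) and 72 h of ethanol vapour, and air mice received neither. All mice, controls included, received pyrazole at 68.1 mg/kg, a blocker of ethanol breakdown, at the start and again at 24 h and 48 h. Tissue was taken 8 h after the chambers. A line is represented by only 2 populations, and p-values measure the spread between pools of mice.

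Values below are log2 normalised intensities, where 1 unit is a doubling, and the floor is 5.64. Background was 16.4 ± 5.94 intensity units on female arrays and 26.5 ± 8.53 on male arrays (SD, n = 16 each), and 60.9% ± 6.45 and 70.5% ± 9.15 of clones were above it. Of the tissue's markers, the neuronal clones Syt4, Thy1 and Ina were above background on 32, 26 and 32 arrays, and the astrocyte clones Glul and Fgfr3 on 32 and 9. Array 2-1 of female WSP air had the lowest median correlation with the other arrays of the 32, at 0.948. Male WSP EtOH 1-2 was close to it, at 0.950. On female WSP air 2-1 the microglial clone Fcer1g read 8.31, against at most 6.05 on the other 31 arrays. Fitted member differences that rest on female WSP air 2-1 and move by over 1.5 times without it are given both ways. In tissue RNA, fewer cells of a type and less RNA per cell cannot be told apart, and the number of arrays limits the precision.

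On the GRCm38.p6 build, Smad3 lies on chromosome 9 from 63646766 to 63757994, Klf10 on chromosome 15 from 38291464 to 38300711, Tgfbi on chromosome 13 from 56609586 to 56639359 and Itgb1 on chromosome 8 from 128685654 to 128733579. RefSeq's promoter table held 3 of the 4 genes, and the 250 bases before each start are shown because TGF-beta's transcriptional arm acts on such regions. Capitals mark the SMAD-binding motif CAGAC (read as GTCTG on the opposite strand) and the GC box GGGCGG (opposite strand CCGCCC), a site of the kind that Sp1 and Klf proteins bind. They read 5′ to 3′ on the gene's strand, at chr13:56609336-56609585 (plus strand) for Tgfbi, chr9:63757995-63758244 (minus strand) for Smad3 and chr8:128685404-128685653 (plus strand) for Itgb1.
Tgfbi: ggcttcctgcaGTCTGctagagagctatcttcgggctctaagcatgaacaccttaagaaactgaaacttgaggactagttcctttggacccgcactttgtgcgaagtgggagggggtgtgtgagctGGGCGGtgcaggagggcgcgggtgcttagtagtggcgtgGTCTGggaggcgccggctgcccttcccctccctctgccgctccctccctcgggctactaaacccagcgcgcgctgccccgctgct
Smad3: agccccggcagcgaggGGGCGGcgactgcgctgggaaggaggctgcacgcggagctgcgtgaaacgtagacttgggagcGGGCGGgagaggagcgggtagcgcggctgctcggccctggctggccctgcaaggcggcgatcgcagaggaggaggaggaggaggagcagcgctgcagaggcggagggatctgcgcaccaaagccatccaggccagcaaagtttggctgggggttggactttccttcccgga
Itgb1: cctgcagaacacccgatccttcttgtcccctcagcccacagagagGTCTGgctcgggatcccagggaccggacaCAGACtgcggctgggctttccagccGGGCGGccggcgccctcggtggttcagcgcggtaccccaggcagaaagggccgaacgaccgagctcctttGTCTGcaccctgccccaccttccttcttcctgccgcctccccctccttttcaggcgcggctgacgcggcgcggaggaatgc

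The Tgfbi window held 2 SMAD-binding motifs and 1 GC box, the Itgb1 window 3 and 1, and the Smad3 window 0 and 2, with no overlap between the motifs. Of all 32851 windows of the same length, 42.2% held the SMAD-binding motif and 32.7% the GC box, so either is common. The windows were 62.4% (Tgfbi) to 69.2% (Smad3) G or C, against a median of 52.4% over all windows. A match describes letters only and is not a measured site. The fourth gene, Klf10, is not in the table.

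Smad3 was the brightest member, with a mean of 8.95 over the 32 arrays, then Tgfbi at 7.79, Klf10 at 6.46 and Itgb1 at 6.12, where the median clone was at 5.98. These means belong to different clones and are not set against each other. Smad3, Klf10 and Tgfbi were above background on all 32 arrays and Itgb1 on 24, so differences of Itgb1 and, less so, Klf10 are compressed towards the floor.

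Smad3, which carries the receptor's signal to the nucleus, was high in male WSR EtOH mice. The arrays of each group are given as both pools of population 1 and then both pools of population 2. In male WSR mice Smad3 read 9.48, 9.13, 9.39 and 9.25 with EtOH, against 9.18, 9.04, 8.59 and 8.59 with air. The EtOH arrays thus lay above the air mean in 4 of 4 pools, 3 of them above every air pool, while the lowest EtOH value was below the highest air value. The fitted difference was 0.46 (SE 0.19), and it was 0.73 in population 2 and 0.19 in population 1. In female WSP mice Smad3 read 9.13, 9.10, 8.91 and 8.87 with EtOH, against 8.02, 8.96, 9.28 and 8.98 with air. One air pool, 8.02, was far below the others, and without it the difference of 0.19 (SE 0.19) was -0.07, against 0.35 without array 2-1. The populations ran opposite ways, at -0.24 in population 2 and 0.63 in population 1. In female WSR mice it read 8.59, 9.35, 8.77 and 8.71 with EtOH, against 8.77, 9.01, 8.97 and 9.07 with air, a difference of -0.10 (SE 0.19). In male WSP mice it read 8.93, 9.11, 8.72 and 8.54 with EtOH, against 8.86, 9.06, 9.06 and 8.96 with air, a difference of -0.16 (SE 0.19). Female WSR and male WSP mice differed by -0.28 and -0.38 in population 2, against 0.08 and 0.06 in population 1. By sign alone, Smad3 was thus higher with EtOH in both sexes of WSP-1 and WSR-1, and otherwise only in male WSR-2 mice. Each of these values sets 2 arrays against 2, and 0.08 and 0.06 are small beside the within-group SD of 0.28. The 0.63 includes the air pool at 8.02. WSP-1 and WSR-1 were selected independently and share only a number, and WSP-2 had the higher ethanol dose. All strata together differed by 0.10 (SE 0.10).

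Klf10, the early TGF-beta-induced repressor, was lower with EtOH in 3 of the 4 strata. In female WSP mice it read 5.94, 6.24, 5.91 and 6.04 with EtOH, against 6.05, 6.59, 7.02 and 6.97 with air. All 4 EtOH pools were below the air mean and 3 below every air pool. EtOH arrays 1-1 and 2-1 had Klf10 signals of 34.0 and 20.8, just over their backgrounds of 31.8 and 19.0. Arrays 1-2 and 2-2 had signals of 33.0 and 15.6 over backgrounds of 16.9 and 9.83. The Klf10 difference was -0.62 (SE 0.19), or -0.50 without air array 2-1. It was -1.02 in population 2 and -0.23 in population 1, and air array 2-1 belongs to population 2. In male WSR mice Klf10 read 6.50, 6.14, 6.48 and 6.02 with EtOH, against 6.97, 6.74, 6.57 and 6.50 with air, a difference of -0.41 (SE 0.19). These groups did not overlap, although the highest EtOH and lowest air values lay close together. In female WSR mice it read 6.14, 6.08, 6.47 and 6.70 with EtOH, against 6.97, 6.69, 6.30 and 6.27 with air. That difference of -0.21 (SE 0.19) ran opposite ways in the populations, at 0.30 in WSR-2 and -0.72 in WSR-1. In male WSP mice it read 6.93, 6.70, 6.44 and 6.54 with EtOH, against 6.85, 6.57, 6.29 and 6.19 with air, a difference of 0.18 (SE 0.19). Over all strata Klf10 differed by -0.27 (SE 0.10).

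Tgfbi, the secreted matrix protein, was higher with EtOH mainly in female WSP mice. There it read 7.83, 7.80, 7.67 and 8.24 with EtOH, against 7.40, 7.42, 7.30 and 7.09 with air. The groups did not overlap, the difference was 0.58 (SE 0.13), a fold of 1.50, and it was 0.58 again without array 2-1. Both populations had this direction, with 0.76 in population 2 and 0.41 in population 1. In female WSR mice Tgfbi read 7.49, 7.76, 7.85 and 7.89 with EtOH, against 7.58, 7.48, 7.63 and 7.77 with air, a difference of 0.13 (SE 0.13). In male WSP mice it read 7.89, 7.90, 8.05 and 7.75 with EtOH, against 7.67, 7.64, 8.16 and 7.95 with air, a difference of 0.04 (SE 0.13). In male WSR mice it read 8.18, 8.08, 8.23 and 7.89 with EtOH, against 8.00, 7.81, 8.04 and 7.90 with air, a difference of 0.16 (SE 0.13). These 3 strata overlapped, and over all strata the difference was 0.23 (SE 0.07).

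Itgb1, the beta 1 integrin chain, was dim on these arrays, and in WSP females its EtOH pools were near the floor. In female WSP mice it read 5.85, 5.89, 5.81 and 5.79 with EtOH, against 5.77, 6.20, 7.07 and 6.53 with air. Signal exceeded background on 1 EtOH array and on 3 air arrays, and the groups overlapped. The difference was -0.56 (SE 0.18), or -0.33 without array 2-1, which held the highest air value. It was -0.9998 in population 2 and -0.12 in population 1. In male WSR mice Itgb1 read 6.01, 5.88, 6.03 and 5.86 with EtOH, against 6.37, 6.19, 6.09 and 6.62 with air, groups that did not overlap (difference -0.37, SE 0.18). In female WSR mice it read 5.82, 5.88, 6.29 and 6.22 with EtOH, against 6.57, 6.10, 5.91 and 6.19 with air, a difference of -0.14 (SE 0.18). As for Klf10, the populations of WSR females ran opposite ways, at 0.20 in WSR-2 and -0.48 in WSR-1. The clones touching Itgb1 did so too, as given below. In male WSP mice it read 5.96, 6.04, 6.29 and 6.23 with EtOH, against 6.34, 6.38, 5.997 and 5.81 with air. Those means were both 6.13, with a difference of 0.36 in population 2 and -0.36 in population 1, and over all strata Itgb1 differed by -0.27 (SE 0.09).

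**Figure D1:**
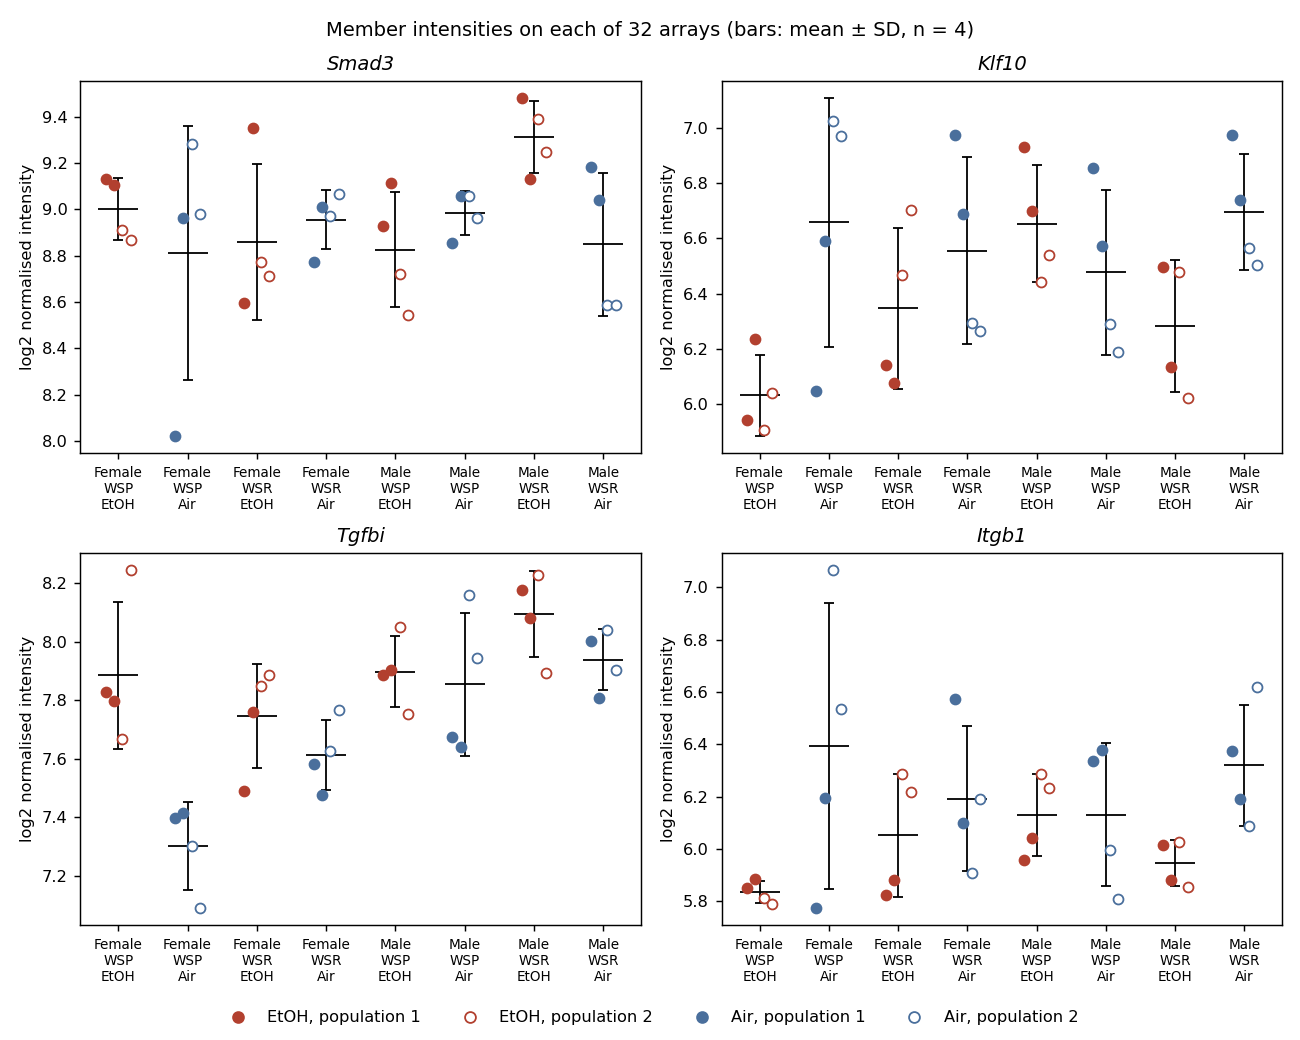
Log2 normalised intensity (y axis) of the 4 members on each array, by group (x axis), with filled points for population 1, open points for population 2 and bars for the mean ± SD of 4 arrays. Tgfbi in female WSP mice and Klf10 and Itgb1 in male WSR mice are the 3 cases in which the EtOH and air points do not overlap.

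Groups that do not overlap are the background rate to read these counts against. Among all clones, 5.47% did not overlap between EtOH and air in WSP females and 2.49% in WSR females. The share was 2.77% in WSP males and 3.56% in WSR males. Since the members were chosen by these contrasts, nothing is read from their 1, 0, 0 and 2 cases. In limma, 0 of 4696 clones (0%) had an adjusted p under 0.05 for EtOH against air over all strata or in any stratum. Among WSP females that count depended on single arrays and on scaling: it was 18 without air 1-1, 6 without air 2-1, 4 without EtOH 2-1, 2 without air 1-2 and 2 without air 2-2, 31 with cyclic loess and 17 with median scaling. At an unadjusted p under 0.05 there were 353 over all strata, 543 in WSP females, 141 in WSR females, 289 in WSP males and 159 in WSR males. Over all strata the lowest and highest 1% of clones began at -0.25 and 0.23. Klf10, Itgb1 and Tgfbi lay just past these limits, and Smad3 at 0.10 did not.

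The order of the 8 group means is a description, since the EtOH and air means that chose the members are among them. For Tgfbi it ran from male WSR EtOH at 8.09 ± 0.15 to female WSP air at 7.30 ± 0.15 (SD, n = 4), and the lowest group was 0.31 below the next, female WSR air. For Klf10 the lowest group was female WSP EtOH, at 6.03 ± 0.15, which was 0.25 below male WSR EtOH. For Smad3 the highest group, male WSR EtOH at 9.31 ± 0.15, was 0.31 above female WSP EtOH. For Itgb1 the lowest group was female WSP EtOH, at 5.83 ± 0.04, against 5.95 ± 0.09 in male WSR EtOH. Those 4 gaps exceeded the larger SD of the 2 groups, as did the 0.16 between male WSR EtOH and male WSR air for Tgfbi. The other 23 of 28 gaps between neighbours in these orders did not.

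Values of the spots around the members are given beside these differences. Klf10 and Itgb1 are printed side by side, in field 1, grid d, row 5, columns 14 and 15. Over the 32 arrays less their group means, Klf10 and Itgb1 correlated with Pearson's r of 0.67 and Spearman's rho of 0.60, and r was 0.54 without the 2 arrays farthest out on Klf10. The points share arrays and position: the median r of 4136 side-by-side pairs of clones was 0.54, and 32.1% of those pairs were at or above 0.67. For the 3208 of these pairs with both means under 7, as for Klf10 and Itgb1, the median r was 0.61. Of those dim pairs, 40.6% were at or above 0.67. Clones at the same place in the other field had a median r of 0.003 over 2128 pairs. Smad3 and Klf10 had an r of 0.41, a rho of 0.26 and an r of 0.29 without the 2 arrays farthest out. Smad3 and Itgb1 had an r of 0.31 and a rho of 0.003, and Tgfbi had r values of -0.14 with Klf10, -0.01 with Smad3 and -0.14 with Itgb1.

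Among WSP females, all 44 clone spots within 3 columns and rows of Klf10, Itgb1 included, were lower with EtOH, with a median of -0.42. The same held for all 44 around Itgb1, with a median of -0.43, and the 7 spots touching Itgb1 had a median of -0.62. These values include air array 2-1. On it the touching medians, other members aside, were 7.23 for Klf10 and 7.26 for Itgb1. On the other female WSP air arrays they were 6.25 to 6.61 and 6.06 to 6.61. Less the median of its touching clones, other members aside, Klf10 in female WSP mice differed by -0.15 in place of -0.62, and Itgb1 by 0.04 in place of -0.56. In male WSR mice the values less the touching clones were -0.29 for Klf10 and -0.18 for Itgb1. Local centring took each spot less the median of all other spots within 3 columns and rows, unidentified and control spots included. For Klf10 and Itgb1 it gave -0.15 and 0.01 in female WSP mice and -0.29 and -0.16 in male WSR mice. It was done without quantile normalisation, with array medians then made equal, so it also differs in scaling. The part of array position in the Klf10 and Itgb1 differences was not tested beyond these values.

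Tgfbi is printed in the other field. Among WSP females its 4 touching clones were all higher with EtOH, with a median of 0.08, and Tgfbi less those clones differed by 0.47, or by 0.37 after local centring. In male WSP mice the same values for Tgfbi were -0.23 and -0.14, in place of 0.04, and in male WSR mice they were -0.02 and 0.00, in place of 0.16. The value of -0.23 includes male WSP EtOH array 1-2, where the median of the clones touching Tgfbi was 6.97. That median was 5.98 to 6.44 on the other EtOH arrays and 5.79 to 6.46 on the air arrays of male WSP mice. In male WSR mice 6 of the 7 clones touching Smad3 were higher with EtOH, with a median of 0.25. Smad3 less those clones differed by 0.24, and by 0.11 after local centring, in place of 0.46. The median of the clones touching Smad3 was 6.67 on male WSR EtOH array 1-1. It was 5.87, 5.98 and 5.96 on the other EtOH arrays and 5.87 to 5.94 on the air arrays. The rise subtracted in the value of 0.24 thus rests largely on array 1-1. Most neighbours of Tgfbi and Smad3 were nearer the floor than these members, so the differences subtracted are compressed. The neighbours brighter than Tgfbi, with means of 8.08, 8.73 and 11.4, differed by 0.30, 0.06 and 0.11 in female WSP mice. The neighbour brighter than Smad3, with a mean of 9.51, differed by 0.27 in male WSR mice.

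**Figure D2:**
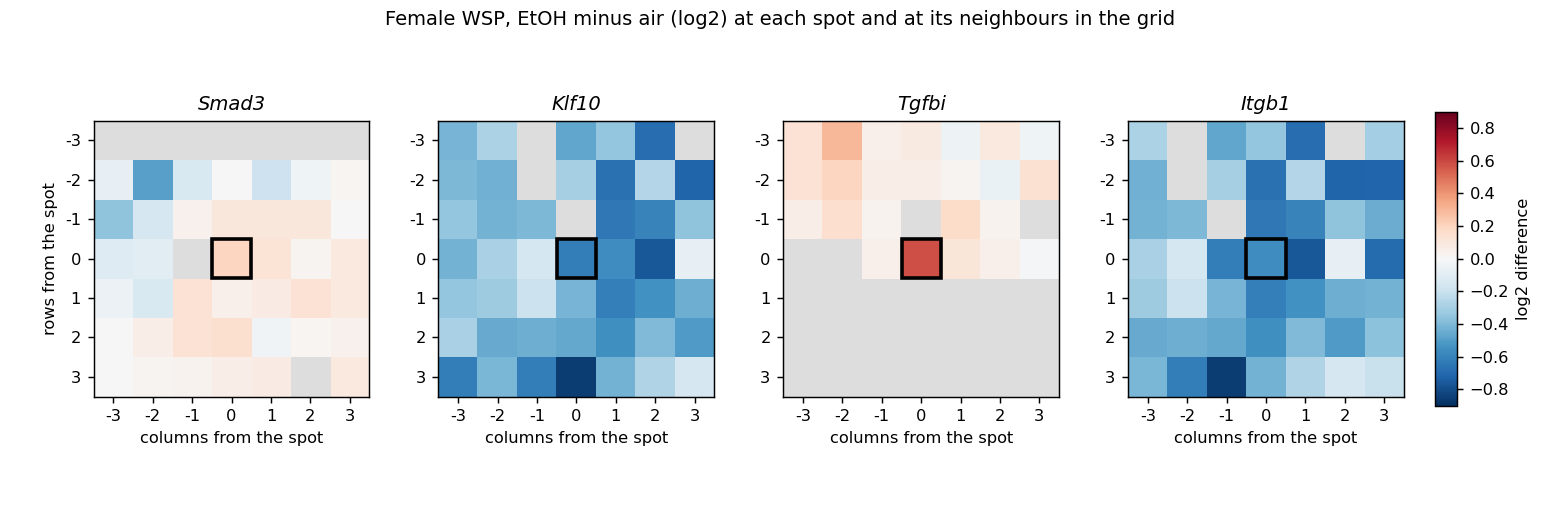
EtOH minus air in female WSP mice (colour, log2 difference) at each member's spot, boxed, and at the clone spots up to 3 columns (x axis) and 3 rows (y axis) away, with grey for places without a clone. All 44 neighbours of Klf10 and of Itgb1 are below 0, while Tgfbi at 0.58 stands above neighbours with a median of 0.06.

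**Figure D3:**
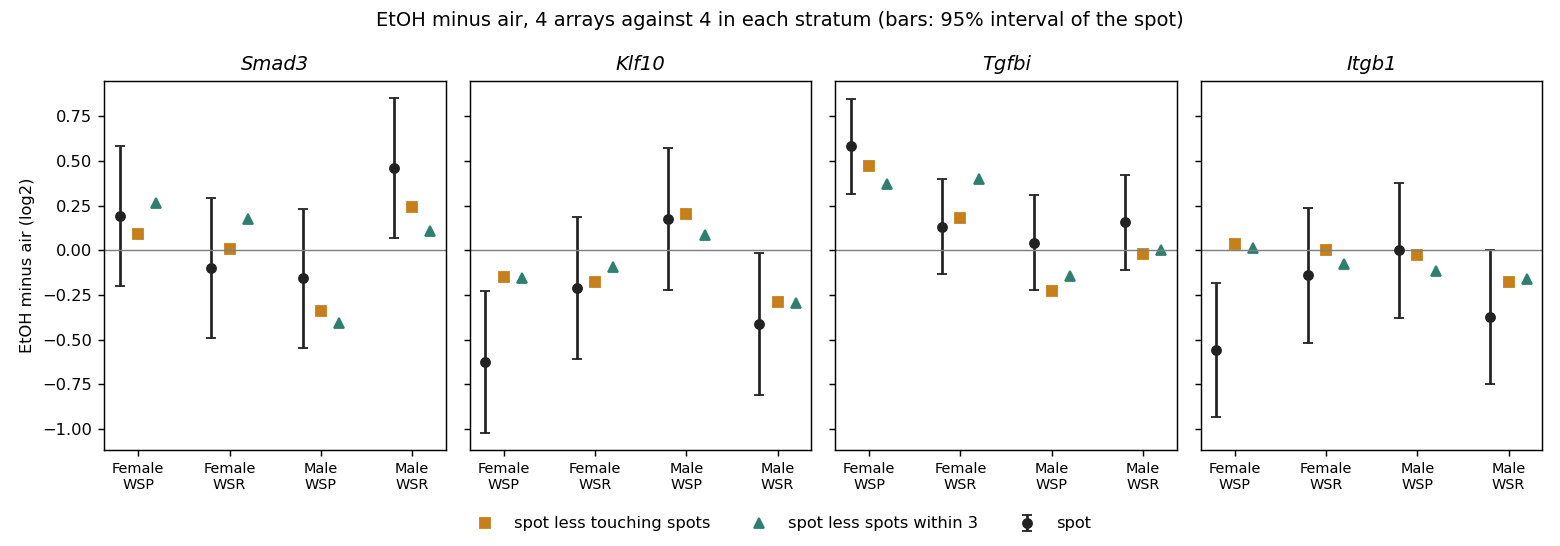
EtOH minus air (y axis, log2) in the 4 strata (x axis) for each spot with its 95% interval. Other symbols are the spot less its touching clones, and the spot less the median of all spots within 3 columns and rows. In female WSP mice the position-adjusted values are -0.15 for Klf10 and 0.01 to 0.04 for Itgb1, while Tgfbi there stays at 0.37 or above.

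Tests were then made on comparisons that did not choose the members. Sex was such a comparison, and Tgfbi was the member that passed. Female pools had a Tgfbi mean of 7.64 ± 0.28 and male pools of 7.95 ± 0.17 (SD, n = 16 each), with ranges of 7.09 to 8.24 and 7.64 to 8.23. The difference was -0.31 (SE 0.07, 95% interval -0.44 to -0.18), a fold of 0.807, with a limma adjusted p of 0.0119. In limma 42 of 4696 clones (0.894%) were called between the sexes, 7 higher and 35 lower in females.

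By line and treatment the Tgfbi difference between females and males was -0.01 in WSP EtOH, -0.55 in WSP air, -0.35 in WSR EtOH and -0.32 in WSR air mice. In the last 3 of these, all 4 female pools were below every male pool, and the WSP air value rests on the female air arrays that chose Tgfbi. The WSR groups lay close: the highest female and lowest male values were 7.886 and 7.894 with EtOH, and 7.77 and 7.81 with air. Among all clones, 5.2% did not overlap between the sexes in WSP EtOH, 5.75% in WSP air, 3.45% in WSR EtOH and 4.41% in WSR air mice. Within the lines the limma adjusted p was 0.176 in WSP (difference -0.28) and 0.406 in WSR (difference -0.34), and within populations it was 0.549 in population 1 (-0.30) and 0.293 in population 2 (-0.32). The call held when any 1 array was left out, with limma adjusted p values from 0.00387 to 0.0287 (0.0193 without array 2-1), and with array sets as a random block (-0.29, adjusted p = 0.0122). No set joined female WSP arrays with arrays of another group, so the block cannot separate these females from their sets. The call did not hold with median scaling (-0.17, adjusted p = 0.664), local centring (-0.17, adjusted p = 0.682) or the authors' values (-0.27, adjusted p = 0.118).

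The following were measured beside the Tgfbi sex difference. Array background was lower on female arrays, as given above. The 4 clones touching Tgfbi had a median sex difference of -0.05. The summed linear intensity of the 3 microglia and macrophage clones ran from 173 to 453 in females, with a median of 194, and from 164 to 224 in males, with a median of 195. That of the 2 vascular clones ran from 122 to 157 in females, with a median of 131, and from 121 to 222 in males, with a median of 135, and 1 of these, Eng, is also a TGF-beta gene. That of the 8 blood and choroid plexus clones ran from 2591 to 3392 in females, with a median of 3007, and from 2251 to 3228 in males, with a median of 2713. No clone title matched the meningeal and fibroblast markers, and clones without a gene title were not searched. The part of these measures in the Tgfbi difference was not tested.

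No other member was called between the sexes. In WSP EtOH mice alone the females were below every male for Klf10 (-0.62) and Itgb1 (-0.30), which rests on the female EtOH arrays that chose them. Smad3 averaged 8.91 ± 0.31 in females and 8.99 ± 0.28 in males (SD, n = 16 each), a difference of -0.09 (SE 0.10, limma adjusted p = 0.836). Klf10 averaged 6.40 ± 0.38 in females and 6.53 ± 0.27 in males, a difference of -0.13 (SE 0.10, limma adjusted p = 0.764). Itgb1 averaged 6.12 ± 0.36 in females and 6.13 ± 0.23 in males, a difference of -0.01 (SE 0.09, limma adjusted p = 0.970). Their 95% intervals ran from -0.28 to 0.11, from -0.33 to 0.07 and from -0.20 to 0.18. Without female WSP air 2-1 the Itgb1 value was -0.07.

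None of the members was called between the lines, where 30 clones (0.639%) were, 1 higher and 29 lower in WSP. Tgfbi averaged 7.73 ± 0.31 in WSP and 7.85 ± 0.23 in WSR pools (SD, n = 16 each), a difference of -0.11 (SE 0.07, limma adjusted p = 0.772). Smad3 averaged 8.91 ± 0.29 in WSP and 8.99 ± 0.30 in WSR, a difference of -0.09 (SE 0.10, limma adjusted p = 0.897). Klf10 averaged 6.45 ± 0.38 in WSP and 6.47 ± 0.30 in WSR, a difference of -0.02 (95% interval -0.21 to 0.18). Itgb1 averaged 6.12 ± 0.35 in WSP and 6.13 ± 0.25 in WSR, a difference of -0.01 (95% interval -0.19 to 0.18). Without female WSP air 2-1 these were -0.05 for Klf10 and -0.06 for Itgb1. On the authors' deposited log2 values, whose scaling is unknown, Tgfbi differed by -0.47 (limma adjusted p = 0.00799) and Smad3 by -0.38 (limma adjusted p = 0.0353), where 211 of 2171 clones were called, the members and those with at least 2 values in every group.

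The sex by line interaction, which is the line difference in females less that in males, called 3 clones (0.0639%) and no member. Its values were 0.05 (SE 0.13) for Tgfbi, 0.18 (SE 0.19) for Smad3, -0.18 (SE 0.19) for Klf10 and -0.01 (SE 0.18) for Itgb1. Without female WSP air 2-1 they were 0.10 for Smad3 and -0.12 for Itgb1. The EtOH by line interaction (the EtOH difference in WSP less that in WSR) and the EtOH by sex interaction (that in females less that in males) each called 0 clones in limma (0%), against 98 and 288 at an unadjusted p under 0.05. EtOH by line gave 0.09 (SE 0.19) for Klf10, which was 0.15 without female WSP air 2-1. For Itgb1 it gave -0.02 (SE 0.18), which was 0.09 without that array. EtOH by sex gave -0.30 (SE 0.19) for Klf10 and -0.16 (SE 0.18) for Itgb1, which was -0.05 without that array.

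The populations of a line were compared in air, where both had the same treatment. Klf10 in WSR-2 air pools read 6.30, 6.27, 6.57 and 6.50 (females, then males), against 6.97, 6.69, 6.97 and 6.74 in WSR-1. The groups did not overlap, as was so for 3.92% of clones, and the difference was -0.43 (SE 0.13) with an unadjusted p of 0.00368 in limma and an adjusted p of 0.366. In WSR 4 clones (0.0852%) were called. Smad3 in WSP-2 air pools read 9.28, 8.98, 9.06 and 8.96, against 8.02, 8.96, 8.86 and 9.06 in WSP-1. That difference was 0.35 (SE 0.17, limma adjusted p = 0.690), or 0.11 without female air 1-1, the 8.02 pool, and 0.58 without female air 1-2, and in WSP 0 clones (0%) were called, with 338 at an unadjusted p under 0.05. The other 6 values between populations lay between -0.20 and 0.18, with limma adjusted p values of 0.804 or more. Without female WSP air 2-1, WSP-2 minus WSP-1 was 0.05 in place of 0.18 for Itgb1 and 0.04 in place of 0.09 for Tgfbi.

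**Figure D4:**
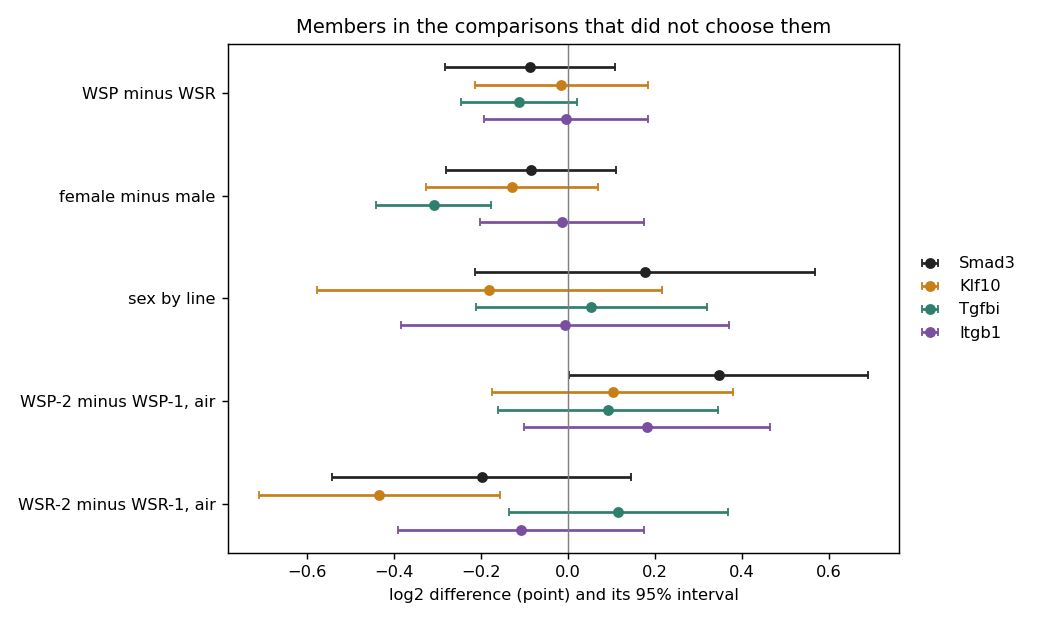
Log2 difference (x axis) with its 95% interval for the 4 members in the comparisons of line, sex, sex by line, and populations in air (y axis). Tgfbi between females and males, at -0.31, is the value called in limma after adjustment.

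The other genes of the pathway were taken from title lists. Of 11 further TGF-beta and BMP clones, 0 were called by line, sex, sex by line or population, and their median line difference was -0.03 and median sex difference 0.02, against 0.00 for all clones in both. Of 30 further matrix and adhesion clones, also 0 were called, with medians of 0.01 by line and 0.00 by sex. With EtOH, 3 of the 11 TGF-beta clones were higher in WSP females, 6 in WSR females, 6 in WSP males and 5 in WSR males. Of the 30 matrix clones, 10, 15, 14 and 17 were higher in the same strata, where 55.2%, 50%, 50.9% and 52.8% of all clones were. Smad2, the partner of Smad3, differed between lines by -0.23 (SE 0.09) and between sexes by -0.08 (SE 0.09). Among the brighter clones of its list were Eng, a TGF-beta co-receptor of vessels, with a mean of 6.30, and the ligand gene Tgfb2, with a mean of 6.24. Among clones above background on at least 16 arrays, Eng also had the largest sex difference of its list, -0.13 (SE 0.11), while Bmp1, a procollagen protease, differed by -0.07 (SE 0.04) between lines and Tbrg4 by 0.05 (SE 0.06) between sexes.

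Among matrix genes the brightest were Fbln2, a fibulin of elastic matrix, at 7.37, Loxl1, which cross-links elastin, at 6.78, and Itgb1bp1, which binds the tail of the beta 1 integrin, at 6.43. Itgb1bp1 differed by 0.09 (SE 0.08) between lines and by 0.02 (SE 0.08) between sexes, and Loxl1 by 0.04 (SE 0.06) and -0.01 (SE 0.06). Among clones above background on at least 16 arrays, the largest line differences were those of the metalloproteinase Mmp24 at 0.12 (SE 0.13), of Fbln2 at -0.12 (SE 0.09) and of alpha-actinin-2 associated LIM protein at -0.10 (SE 0.10). By sex the heparan sulphate proteoglycan Gpc1 differed by -0.16 (SE 0.13), Mmp24 by 0.15 (SE 0.13) and Fbln2 by 0.13 (SE 0.09). The Gpc1 spot touches that of Smad3.

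The clones most like each member, by Pearson's r over the 32 arrays less group means and among 683 candidates, were often near it on the array. Smad3 was most like cyclin-dependent kinase regulatory subunit 1 (r = 0.83), whose spot is 1 row away, and histone 4 protein was also among the closest (r = 0.61). Klf10 was most like Y-box protein MSY2 (r = 0.71), Itgb1 (r = 0.67) and RAB24 (r = 0.61), all in its own grid. Itgb1 was most like an aldo-keto reductase 3 columns away (r = 0.72), pre B-cell leukemia transcription factor 3 (r = 0.71) and small inducible cytokine A9 (r = 0.68). Tgfbi was most like SH2 domain protein 1A (r = 0.64), SDP8 (r = 0.62) and a potassium channel of subfamily J (r = 0.58). The arrays share print position and depth of label, so these values are a description.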

How the data were processed

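Per the file headers, each deposited file holds an intensity per spot (Signal) and 1 background intensity for the array, which was not subtracted, since Signal is below it on many spots. The authors' series table holds log2 values as deposited. Their scale and direction were settled against Signal (rank correlation 1 on every array), they are blank where Signal is below background (exactly so on 31 of 32 arrays), column medians ran from 7.39 to 8.58, and their centring and scaling are unknown. No label or header names the imager, the spot software or the maker of the array. No genome was used, and gene positions and promoters come from RefSeq tables of GRCm38.p6.

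Signals were corrected with limma 3.58.1 (R 4.3.3) by normexp with an offset of 50 over 5355 spots, 4696 clone spots were kept (192 genomic DNA and 467 unidentified spots were left out), and quantile normalisation and log2 followed. A linear model with 8 group means was fitted to all clones (lmFit, eBayes with trend, Benjamini-Hochberg over all clones, threshold 0.05, two-sided), and a model with 16 means served the populations. The number of arrays limits the precision. No p-value is given for the EtOH by line and EtOH by sex values of the members, since they are built from the differences that chose them. The members and lists were chosen with earlier results of these data known. Named genes were the members, list genes called in any tested comparison, and, per list, the 3 with the highest mean, the 3 with the largest line and the 3 with the largest sex difference among clones above background on at least 16 arrays. Likeness took the 3 titled clones with the highest correlation. Some clones that these rules name are not reported here. Population numbers did not pair EtOH and air arrays: deviations from the group means correlated at -0.08, 0.21, -0.02 and -0.003 in female WSP, female WSR, male WSP and male WSR mice. Array sets were read from the control spots (9 sets, 24 arrays, 6 sets with both sexes), and the consensus correlation within sets was 0.51. No female WSP array was in a set with an array of another group, so the females in sets with both sexes were WSR. The fit was tested on simulated data. Alternatives were other scalings, offsets, filters, position centring, the authors' values, blocks, single populations and left-out arrays, and those by treatment, by line and by touching clones were chosen after seeing the data. Figures were drawn with matplotlib 3.10.9.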

Additional observations from a re-analysis of the deposited data

How the results depend on the processing

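The Tgfbi sex difference kept its sign under every alternative run. It missed the adjusted threshold with median scaling (-0.17), local centring (-0.17), the authors' values (-0.27), population 1 only (-0.30) or population 2 only (-0.32), EtOH arrays only (-0.18), WSP arrays only (-0.28) and WSR arrays only (-0.34). It ranged from -0.34 to -0.28 when 1 array was left out. On the authors' values the line difference passed for Tgfbi (-0.47) and Smad3 (-0.38). With the selection population as a replicate block, the Tgfbi sex difference was -0.31 (limma adjusted p = 0.0118), and the block changed no other call of a member.

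Uncalled differences near 0 changed sign as follows, and the cause was not tested. WSP minus WSR became 0.033 for Klf10 and 0.033 for Itgb1 with median scaling, 3.4e-05 and 0.033 with cyclic loess, 0.016 and 0.018 with local centring, and 0.013 and 0.042 in population 2. For Itgb1 it became 0.065 on the authors' values and 0.0056 in air arrays, and for Klf10 0.028 in EtOH arrays. Female minus male became 0.080 for Smad3 and 0.054 for Itgb1 with median scaling, 0.054 for Itgb1 with cyclic loess, 0.14 and 0.0082 for Smad3 and Itgb1 with local centring, and 0.32 for Itgb1 on the authors' values. It became 0.080, 0.058 and 0.11 for Klf10, Smad3 and Itgb1 in population 2, 0.021 and 0.068 for Klf10 and Itgb1 in air arrays, and 0.0021 for Smad3 in WSP arrays. Sex by line became 0.046, 0.047 and 0.020 for Itgb1 with median scaling, cyclic loess and local centring, and -0.17, 0.079 and 0.22 for Tgfbi, Klf10 and Itgb1 in population 2. EtOH by line became -0.10, -0.076, -0.39 and -0.055 for Klf10 with median scaling, cyclic loess, population 2 and array sets, and 0.067 and 0.17 for Itgb1 with local centring and population 1. EtOH by sex became 0.10 and 0.046 for Itgb1 with local centring and population 1. WSR-2 minus WSR-1 became 0.031 and 0.024 for Smad3 with median scaling and local centring, and 0.13 for Itgb1 with local centring.

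Counts of called clones moved by over 1.5 times. By line (30) they were 0, 16, 5 and 211 with median scaling, cyclic loess, local centring and the authors' values, 0 and 1 in populations 1 and 2, and 0 in air or EtOH arrays alone. By sex (42) they were 5, 11 and 322 with median scaling, local centring and the authors' values, 0 and 8 in populations 1 and 2, and 15, 1 and 3 in air, EtOH and WSR arrays. By sex and line (3) they were 0 with median scaling, local centring and population 2, 5 on the authors' values and 53 in population 1. WSP-2 minus WSP-1 (0) gave 1 with local centring, and WSR-2 minus WSR-1 (4) gave 2 with cyclic loess or local centring, 0 with the filter on background and 7 with array sets. EtOH minus air over all strata (0) gave 1 in population 1. In female WSP mice (0) it gave 17 with median scaling, 31 with cyclic loess, 22 on the authors' values, 17 and 32 in populations 1 and 2, and 1 with the offset of 16, the filter on background, eBayes without trend or array sets. It gave 1 in male WSP mice in either population and 1 in female WSR mice in population 2. With 1 array left out, counts ran from 0 to 18 by EtOH in female WSP mice (18 without air 1-1), from 19 to 42 by line (19 without male WSP air 1-2), from 28 to 59 by sex, from 0 to 6 by sex and line, from 0 to 91 in WSP-2 minus WSP-1 (91 without female WSP air 2-2) and from 2 to 10 in WSR-2 minus WSR-1. Left-out arrays also turned uncalled signs of Itgb1: by line -0.061 to 0.046, by sex -0.069 to 0.038, by sex and line -0.12 to 0.097, by EtOH and line -0.12 to 0.091, and in WSR-2 minus WSR-1 -0.24 to 0.025. They did so for Klf10 by line (-0.047 to 0.035), by EtOH and line (-0.016 to 0.15) and in WSP-2 minus WSP-1 (-0.032 to 0.24), and for Tgfbi by sex and line (-0.0063 to 0.10). Signal over background limits Itgb1 most, since its spot was above background on 24 of 32 arrays.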
